A study of Bos taurus with 12 samples.

Results

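Transcripts that mark lymphocytes and plasma cells were followed in fat samples from steers of 2 breeds, Japanese Black (JB) and Holstein (HS). The genes were PTPRC, CD3E, CD3D, CD2, JCHAIN and CD79B, and their probe sets were those annotated with 1 gene symbol that is one of these 6, whatever their signal. This gave 10 of the 24016 probe sets of the array that were not controls, and 5 of its 9155 named genes: 3 probe sets for PTPRC, 3 for CD2, 2 for CD3D, and 1 each for JCHAIN and CD3E. CD79B, a signalling chain of the B cell antigen receptor, was not analysed here. A filter on mean signal, applied to all probe sets without regard to group, kept 6 of the 10 for testing: 1 each for PTPRC, JCHAIN, CD3E and CD2, and both for CD3D, called the brighter and the dimmer by their mean signal. The other 4, of PTPRC and CD2, were dim and are described separately.

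JB cattle are raised for beef with strong marbling, and HS cattle for milk. All steers were fed an energy-rich diet, so the diet was shared by every group. Fat was taken from inside a muscle (intramuscular, IMF) and from beneath the skin (subcutaneous, SCF). Breed and depot together gave 4 groups of 3 samples, IMF samples being numbered 1 to 3 and SCF samples 4 to 6, and each sample was hybridized to its own Affymetrix bovine array. The labels give neither the ages of the animals nor the muscle or body site sampled. They also do not say whether each sample of a group is a different animal, or whether IMF and SCF samples came from the same animals. The depots were compared as unpaired samples. The p-values therefore reflect how far these samples vary, and part of that variation may be technical. The small number of arrays limits the precision.

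PTPRC encodes CD45, a transmembrane tyrosine phosphatase carried by all nucleated blood cells, which removes an inhibitory phosphate from the kinases that start antigen receptor signalling. It marks leukocytes as a whole, macrophages included, and not lymphocytes alone. CD3E and CD3D are chains of the CD3 complex, which carries the signal of the T cell receptor into the cell, and CD2 is an adhesion receptor of T cells and natural killer cells. JCHAIN encodes the joining chain that links IgM or IgA molecules into polymers, and it is made by antibody-secreting plasma cells. Fat holds resident leukocytes of all these kinds among its adipocytes and vessels, and some fat depots enclose lymph nodes. In bulk tissue, fewer cells of a type and less RNA per cell cannot be told apart.

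The median deposited signal of the arrays lay between 58.8 in HS IMF 3 and 88.3, with the others at 77.6 or above. Samples correlated with the rest of their group at a mean Pearson r of 0.963 to 0.975 in JB and of 0.862 to 0.944 in HS, lowest in HS IMF 3. GAPDH control probe sets at the 3' and 5' ends, whose ratio increases with RNA degradation, stood at 1.19 to 2.40 in IMF. In SCF the ratio was 1.87 to 4.06, highest in HS SCF 5. On this ratio 4 of the 6 IMF samples lay below every SCF sample, and its part in the depot differences was not tested. Of the 10 measured genes of skeletal muscle fibres, 8 were higher in IMF than in SCF, with a summed signal of 53790 to 115000 in IMF, against 4361 to 23650 in SCF. Among them MYL2, the slow regulatory myosin light chain, was listed at 0.02 in 4 of the 6 SCF samples. MYH7 and CKM were still at 1922.83 to 4407.83 and 1588.44 to 4850.12 in SCF, so the lower SCF sums leaned on them. ACTA1 was at 1461.79 in JB SCF 6 and 7292.05 in HS SCF 5, against 6.95 to 57.19 in the other SCF samples. TNNC1 was at 298.89 and 1272.01 in the same samples, against 4.21 to 19.55 in the others. None of the 9 adipocyte genes passed between depots, although all 9 differences were negative, and at an unadjusted p under 0.05 there were 7. Without JB IMF 2, 4 of the 9 passed by limma, and 1 without HS IMF 2. Their summed signal was 23400 to 59130 in IMF, against 54860 to 78080 in SCF. The part of muscle RNA in the depot differences of the members was not tested.

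**Figure D1:**
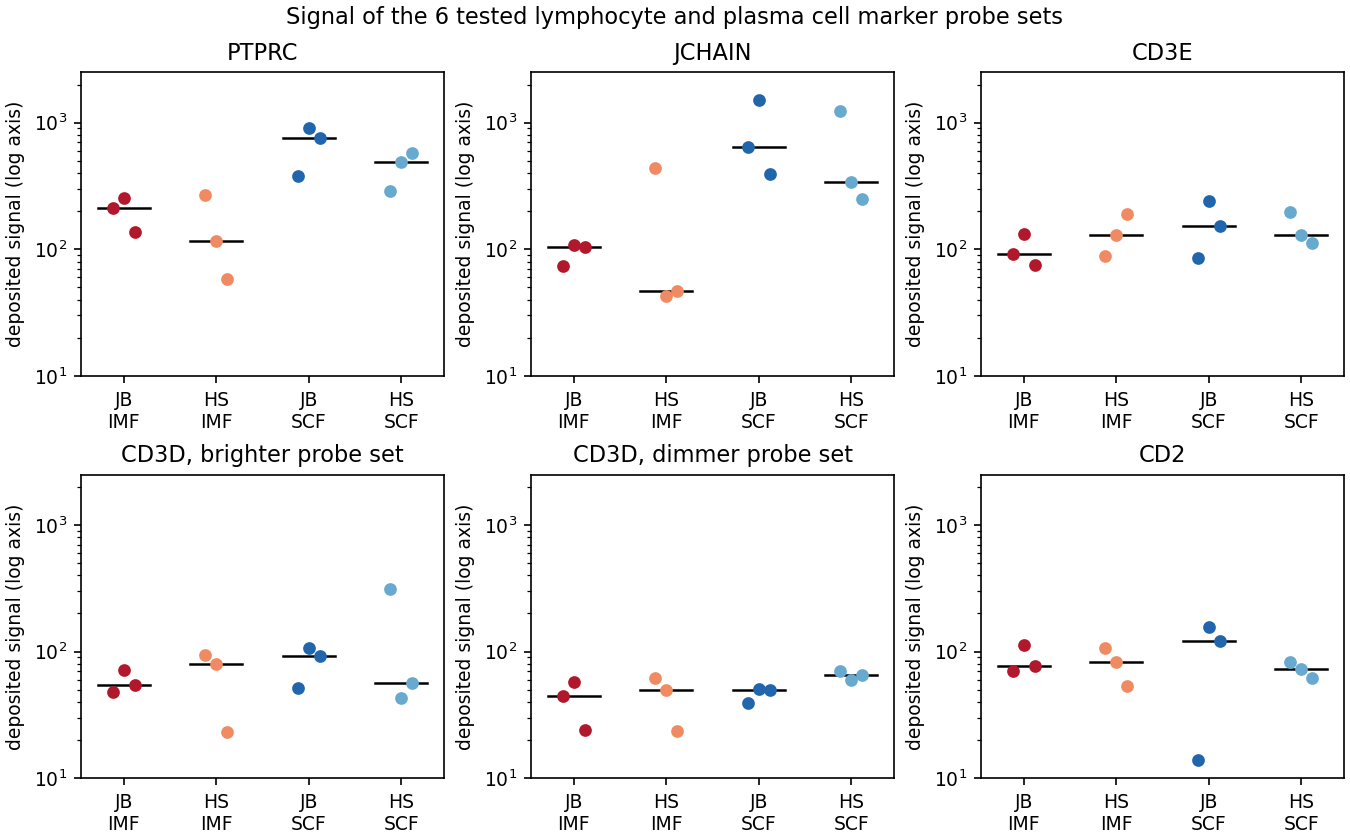
Deposited signal (log axis) of the 6 tested probe sets in each of the 12 samples, by group of breed and depot, with a line at the median of the 3 samples. The 6 PTPRC signals in SCF, 287.18 to 903.04, all lie above the 6 in IMF, 57.86 to 267.42, while the CD3E, CD3D and CD2 signals of the depots overlap.

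Depots were compared over both breeds, as the series' design text names it. PTPRC and JCHAIN were lower in IMF than in SCF, by 2.89-fold and 4.89-fold, and CD3E, both CD3D probe sets and CD2 did not pass. Differences are IMF minus SCF in log2(signal + 16) after quantile normalization between arrays, a scale that understates the change of dim genes. A probe set was called at a Benjamini-Hochberg adjusted p below 0.05 over all 16811 tested probe sets. The 2 calls among 6 member probe sets stand against 11% of all tested probe sets called in this comparison, with 6.33% called lower and 4.66% higher. At an unadjusted p under 0.05 there were 2 of 6 too, against 27.2% of all. The median difference was −0.34 over the 6 member probe sets and −0.06 over all tested probe sets.

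The PTPRC signal was 210.94, 252.47 and 136.62 in the JB IMF samples and 267.42, 116.59 and 57.86 in the HS IMF samples. In SCF it was 378.44, 903.04 and 757.23 in JB and 287.18, 487.83 and 578.42 in HS. No IMF sample reached the lowest SCF sample, HS SCF 4, although HS IMF 1 came close to it. The difference was −1.53 ± 0.31 (SE, n = 6 against 6), with a 95% interval of −2.20 to −0.86 and an adjusted p of 0.00858 by limma. Depots that do not overlap were found for 6.24% of all tested probe sets. Over 22 alternative settings the difference ran from −1.73 to −1.37 and passed in 21. Without both JB SCF 6 and HS SCF 5, it was −1.43 and did not pass by limma (adjusted p = 0.0599).

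JCHAIN gave 73.38, 108.55 and 103.49 in JB IMF and 439.12, 43.08 and 47.1 in HS IMF. In SCF the JCHAIN signal was 644.33, 1520.47 and 394.26 in JB and 1226.73, 342.07 and 251 in HS. Except for HS IMF 1, every IMF sample lay below every SCF sample, and HS IMF 1 lay above 3 of the 6 SCF samples. The depots differed by −2.29 ± 0.54 (SE, n = 6 against 6), with a 95% interval of −3.46 to −1.12 and an adjusted p of 0.0185 by limma. The JCHAIN difference passed in 20 of 22 alternatives and ran from −2.74 to −1.80. Without JB IMF 1 it was −2.21 (limma, adjusted p = 0.0518), and without JB SCF 5 it was −2.03 (limma, adjusted p = 0.0527).

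For the T cell genes CD3E, CD3D and CD2 the samples of the depots overlapped. CD3E signals were 92.52, 132.1 and 75.03 in JB IMF, 88.99, 129.3 and 191.62 in HS IMF, 84.75, 240.3 and 154.08 in JB SCF, and 198.69, 129.39 and 112.56 in HS SCF. Its depot difference was −0.12 ± 0.32 (SE), with a 95% interval of −0.82 to 0.58 (limma, adjusted p = 0.848). The highest CD3E signal was that of JB SCF 5 and the lowest that of JB IMF 3, and each depot spanned most of the range of the other.

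CD2 signals were 70.66, 111.8 and 77.55 in JB IMF, 106.39, 82.95 and 53.87 in HS IMF, 13.82, 155.06 and 120.43 in JB SCF, and 82.79, 72.63 and 62.09 in HS SCF. Both the lowest and the highest CD2 signal came from JB SCF. The CD2 difference was 0.25 ± 0.35 (SE), with a 95% interval of −0.51 to 1.01 (limma, adjusted p = 0.691). Its sign turned in 1 of 21 alternatives, and that of CD3E in 3 of 22.

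CD3D was read by a pair of probe sets. The brighter gave 47.89, 71.96 and 54.33 in JB IMF, 93.23, 80.27 and 23.21 in HS IMF, 51.73, 106.12 and 92.73 in JB SCF, and 312.18, 42.75 and 56.71 in HS SCF. HS SCF 4 stood far above all other samples on it. The difference was −0.43 ± 0.41 (SE), with a 95% interval of −1.32 to 0.46 (limma, adjusted p = 0.543), and its sign turned in 1 of 21 alternatives.

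On the dimmer CD3D probe set HS SCF 4, at 69.94, was again highest but lay close to HS SCF 6, at 65.04. The difference there was −0.24 ± 0.20 (SE), with a 95% interval of −0.68 to 0.19 (limma, adjusted p = 0.462). The CD3D probe sets correlated at r = 0.605 over the 12 samples. The intervals of CD3E, CD3D and CD2 leave room for differences of up to 1.32 log2 units, so the depots are not shown to be alike in them.

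**Figure D2:**
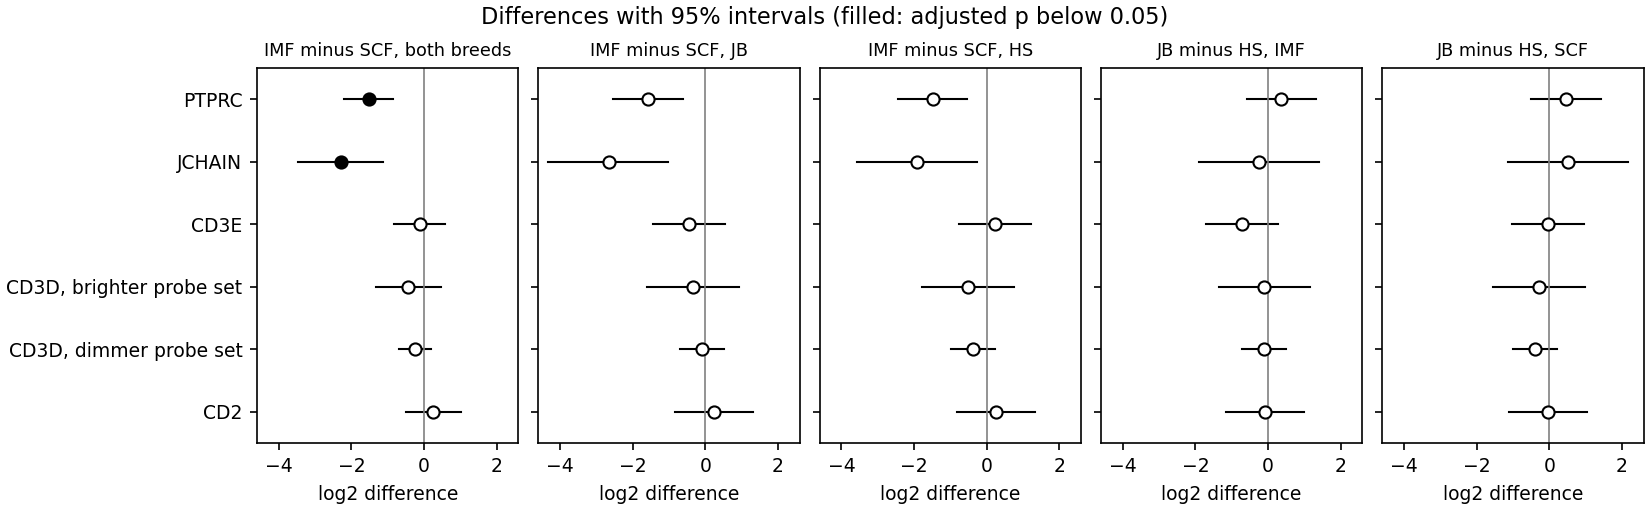
Log2 differences of the 6 tested probe sets with 95% intervals in 5 comparisons of depot and breed; filled points have an adjusted p below 0.05. Filled points are PTPRC at −1.53 and JCHAIN at −2.29 for IMF minus SCF over both breeds.

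The depot difference of PTPRC minus that of CD3E was −1.41 log2 units, and minus those of CD2 and the brighter CD3D probe set −1.78 and −1.1. For JCHAIN the values were −2.17 against CD3E, −2.54 against CD2 and −1.86 against CD3D. These gaps are a description, since the genes were paired after their calls were known, and whether the depot differences of the members differ was not tested.

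Within the breeds the same 2 genes had the largest depot differences of the 6 member probe sets, and none was called. In JB, PTPRC differed by −1.58 ± 0.44 (SE, n = 3 against 3; limma, adjusted p = 0.0857) and JCHAIN by −2.67 ± 0.76 (limma, adjusted p = 0.0956). In HS, PTPRC differed by −1.48 ± 0.44 (limma, adjusted p = 0.0873) and JCHAIN by −1.91 ± 0.76 (limma, adjusted p = 0.177). By limma, 0 of 6 member probe sets passed in JB and 0 of 6 in HS, beside 3.07% and 3.32% of all tested probe sets. In JB, leaving out JB IMF 1 or 3 lowered that share to 1.37% or 1.3%, and leaving out JB SCF 5 or 6 to 1.53% or 1.46%. The HS share was 6.64% without HS IMF 1 and 1.14% to 2.09% without JB IMF 1, JB SCF 5, HS IMF 3, HS SCF 5 or HS SCF 6. At an unadjusted p under 0.05 there were 2 in each breed, PTPRC and JCHAIN, beside 13.3% and 21.4% of all. The depots did not overlap for PTPRC or JCHAIN in JB, where 30.3% of all tested probe sets did not, and for PTPRC in HS, where 20.5% did not.

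The other 4 probe sets lay between −0.51 and 0.26 within the breeds, and CD3E was at −0.46 in JB and 0.22 in HS. Several of the non-calls changed when a sample was left out. Without HS IMF 1, PTPRC (−1.89, limma, adjusted p = 0.0331) and JCHAIN (−2.81, limma, adjusted p = 0.0354) passed in HS and JCHAIN passed in JB (−2.67, limma, adjusted p = 0.0355). PTPRC passed in JB without JB SCF 4 (−1.96, limma, adjusted p = 0.0444). With only the JB samples in the fit, JCHAIN passed (limma, adjusted p = 0.0133), as did PTPRC (limma, adjusted p = 0.04999). In that fit 6.17% of all tested probe sets passed.

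Both breed comparisons, which the design text names within IMF and within SCF, gave no call among the members. In IMF, JB minus HS, CD3E had the largest difference, −0.72 ± 0.46 (SE, n = 3 against 3), with a 95% interval of −1.71 to 0.28 (limma, adjusted p = 0.562). Over 24 alternative settings the CD3E difference ran from −1.12 to −0.22 and passed in 0. In deposited signal HS IMF 3, at 191.62, lay above the JB IMF samples, at 75.03 to 132.1. HS IMF 1 and HS IMF 2, at 88.99 and 129.3, lay within the range of JB IMF. PTPRC was at 0.36 ± 0.44 and JCHAIN at −0.24 ± 0.76. The 95% intervals were −0.59 to 1.31 for PTPRC and −1.89 to 1.41 for JCHAIN. CD3D was at −0.10 and −0.11 and CD2 at −0.07. By limma 0 of 6 passed, against 0.0238% of all tested probe sets, and at an unadjusted p under 0.05 there were 0, against 10.2%. The breeds overlapped on all 6, while 13.8% of all tested probe sets did not overlap. The median difference of all probe sets in IMF was 0.10, and 0.38 in the values as deposited, so these small differences are relative to that shift.

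In SCF the member differences ran from −0.39 to 0.51, each with an adjusted p of 1 by limma. PTPRC was at 0.46 ± 0.44 (SE), with a 95% interval of −0.50 to 1.41, and JCHAIN at 0.51 ± 0.76, with a 95% interval of −1.14 to 2.16. On the dimmer CD3D probe set, the JB signals of 39.36, 50.55 and 49.43 lay below the HS signals of 69.94, 59.4 and 65.04, with a difference of −0.39 ± 0.28. It was the one tested member probe set of 6 without overlap, where 12% of all tested probe sets have none. The other CD3D probe set was at −0.27 ± 0.58, with overlap. By limma 0 of 6 passed, against 0.00595% of all, and 0 had an unadjusted p under 0.05, against 3.56%.

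The interaction, taken as the IMF breed difference less the one in SCF, was largest in size for JCHAIN, at −0.75 ± 1.07 (SE), and for CD3E, at −0.68 ± 0.65. PTPRC was at −0.09 ± 0.62, with a 95% interval of −1.44 to 1.25. By limma 0 of 6 passed (lowest adjusted p = 0.99), as did 0% of all tested probe sets, and 0 of 6 had an unadjusted p under 0.05, against 2.14%. In order of mean level after normalization, PTPRC ran from JB SCF through HS SCF and JB IMF to HS IMF. Its one step where neighbouring groups did not overlap was that between HS SCF and JB IMF. JCHAIN ran from JB SCF through HS SCF and HS IMF to JB IMF, and CD3E from HS IMF through HS SCF and JB SCF to JB IMF. Neighbours in the order overlapped for JCHAIN, CD3E, CD3D and CD2. The mean deposited CD3E signal gave another order, with 159.7 in JB SCF, 146.9 in HS SCF, 136.6 in HS IMF and 99.88 in JB IMF.

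The 4 dim probe sets add a weaker reading of the same genes. One of the dim PTPRC probe sets gave 0.04 to 9.53 in JB IMF, 0.46 to 25.59 in HS IMF, 19.2 to 48.07 in JB SCF and 26.02 to 47.73 in HS SCF. In a fit without the filter its depot difference was −1.07 ± 0.24 (SE; limma, adjusted p = 0.0184), of the same sign as that of the tested PTPRC probe set, with which it correlated at r = 0.746 over the 12 samples. The other PTPRC probe set stayed between 0 and 16.94 in all 12 samples and differed by −0.06 (limma, adjusted p = 0.903). Both dim CD2 probe sets stayed at or below 24.8 and differed by 0.05 and −0.21 (limma, adjusted p = 0.905 and 0.549).

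Samples of a group differed from each other across the members together. JB IMF 2 and JB SCF 5 had the highest value of their group on 6 of the 6 tested probe sets, and HS IMF 1 and HS SCF 4 on 5 of 6. JB SCF 4 was lowest of its group on 5 of 6, and HS IMF 3 on 4 of 6 but highest for CD3E. PTPRC was the exception in HS SCF 4, where it was the lowest of the group.

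The genes around the members are given from lists of cell type genes, 1 probe set a gene. Of 17 tested pan-leukocyte genes, 10 were lower in IMF and 0 higher, with a median difference of −1.14. The smallest p belonged to LCP2, the adaptor SLP-76 of antigen receptor signalling, at −1.41 ± 0.20 (SE; limma, adjusted p = 0.00085). CD53, a leukocyte tetraspanin, followed at −1.96 ± 0.31 (limma, adjusted p = 0.0018), with IMF signals of 57.14 to 169.08 and SCF signals of 265.29 to 705.63. CD48, a binding partner of CD2, was at −1.77 ± 0.33 and LCP1, the actin-bundling protein L-plastin, at −1.44 ± 0.27 (limma, adjusted p = 0.00531 and 0.00537). These 4 passed in each of 22 alternatives. PTPRCAP, which encodes a CD45-associated protein, was at 0.31 (limma, adjusted p = 0.522). HCLS1 was called at −1.22, but its other tested probe sets were at −0.48 and −0.05 (limma, adjusted p = 0.202 and 0.893). SELPLG was at 0.37, and another tested probe set of it at −0.79 (limma, adjusted p = 0.0862). VAV1 was called at −0.97, and also on another probe set, at −0.85 (limma, adjusted p = 0.00984). The count of 10 fell to 7 without JB IMF 3 and to 6 without both JB SCF 6 and HS SCF 5.

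Macrophage genes moved with PTPRC in the depot comparison: 11 of 12 tested were lower in IMF, with a median of −2.09. Their summed signal was 2463 to 8107 in IMF, against 14690 to 37640 in SCF, and the 6 IMF samples did not overlap the 6 SCF samples. CD14, a receptor for bacterial lipopolysaccharide, was at −2.19 ± 0.27 (SE). Since PTPRC is also expressed by macrophages, the part of macrophages in its difference was not tested.

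T cell genes did not move together. Of 10 tested genes of the T cell receptor complex and T cell signalling, 1 was higher in IMF and 0 lower. Their median was 0.14, but −0.05 in the values as deposited, −0.02 with array weights, −0.20 with the 50% dimmest left out, −0.14 without HS IMF 3 and −0.15 without both HS IMF 3 and HS SCF 4. The −0.20 is over fewer genes, since CD8A, CD6, ZAP70, CD4, CD3G and CD28 were not tested with the 50% dimmest left out. The gene called was CD28, a co-stimulatory receptor, at 1.40 ± 0.37 (SE; limma, adjusted p = 0.032), with IMF signals of 33.18 to 170.04 and SCF signals of 8.80 to 54.46. Another CD28 probe set, left out of the test as dim, was at 0.15. CD28 passed in 6 of the 12 alternatives that tested it (adjusted p 0.0305 to 0.0848), was not tested in 10 others, and was lost without JB IMF 1, any of the 3 JB SCF samples, HS SCF 4 or HS SCF 6. TCF7, a transcription factor of T cells, was at −0.80 and CD3G, the CD3 chain whose gene neighbours CD3D, at −0.67. LAT, an adaptor of the T cell receptor, was at 0.57 on the probe set with the highest mean. By limma these 3 had adjusted p of 0.0546, 0.152 and 0.151. TCF7 passed in 6 of 22 alternatives, among them array weights (adjusted p = 0.0245) and without JB IMF 2 (0.0326), JB SCF 4 (0.0393) or HS IMF 1 (0.0253). LAT passed in 1 of 22, without HS SCF 4 (0.046). The other LAT probe sets disagreed, at 0.65 (limma, adjusted p = 0.108) and at −0.96 (limma, adjusted p = 0.048), the latter called lower in IMF. LCK, a kinase that CD45 acts on, was too dim to be tested, at 17.45 to 38.37.

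Of 4 tested cytotoxic and natural killer cell genes, 2 were lower in IMF and 0 higher. They were NKG7, a protein of cytotoxic granules, at −1.51 ± 0.39 (SE; limma, adjusted p = 0.0293), and CCL5, a chemokine, at −1.28 ± 0.34 (limma, adjusted p = 0.0327). NKG7 passed in 12 of 21 alternatives and was lost without JB IMF 1 or 3, JB SCF 5 or 6, HS IMF 3, or HS SCF 5 or 6 (adjusted p up to 0.0786). CCL5 passed in 13 of 21 and was lost without JB IMF 1 or 3, JB SCF 5 or 6, or HS IMF 2 or 3 (adjusted p up to 0.0883). Leaving out both HS IMF 3 and HS SCF 4, or both JB SCF 6 and HS SCF 5, also lost CCL5 (limma, adjusted p = 0.0516 and 0.112). Another tested NKG7 probe set was at −0.05 (limma, adjusted p = 0.909). The lectin-like receptor genes KLRD1 and KLRK1 were at 0.54 and 0.26 and did not pass.

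B cell genes were mostly dim. Of 10 measured, 4 were tested, and BTK, a kinase of B cell receptor signalling that myeloid cells also use, was lower in IMF at −1.04 ± 0.18 (SE; limma, adjusted p = 0.00316). Its signals were 30.79 to 43.95 in IMF, against 54.73 to 154.72 in SCF, without overlap. CD79A, the partner chain of CD79B, gave signals of 2.85 to 19.79, MS4A1 (CD20) 0.75 to 67.29 and POU2AF1, a B cell coactivator, 6.65 to 47.08, all too dim to be tested. CD40, BLNK and CR2 were at 0.57, −0.60 and 0.29 and did not pass by limma, except BLNK without JB SCF 4 (−0.83, adjusted p = 0.0331). Another tested CD40 probe set had the opposite sign, −0.70 (limma, adjusted p = 0.069).

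**Figure D3:**
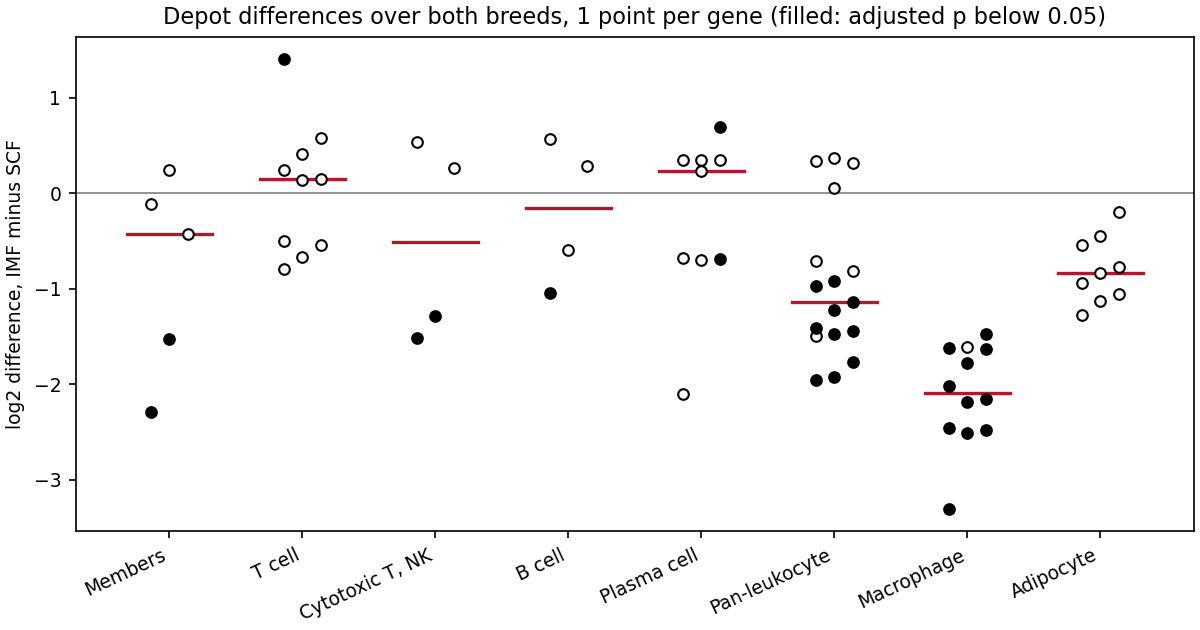
Depot log2 differences (IMF minus SCF over both breeds) of single genes in 8 lists, 1 probe set a gene; red lines mark list medians and filled points an adjusted p below 0.05. The macrophage list has its median at −2.09 and the pan-leukocyte list at −1.14, while the T cell list has its median at 0.14, a sign that turned to negative in 5 alternative settings.

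Of 9 tested plasma cell and immunoglobulin genes, 1 was higher and 1 lower in IMF, with a median of 0.24. That median was −0.01 without both HS IMF 3 and HS SCF 4. With the 50% dimmest left out it was −0.70, but over fewer genes, since PIM2, IGLL1, CD38, PRDM1 and DERL3 were then not tested. DERL3, an endoplasmic reticulum protein of misfolded protein removal, was higher at 0.70 ± 0.18 (SE; limma, adjusted p = 0.0311). Another tested DERL3 probe set was at −0.04 (limma, adjusted p = 0.932), so this call rests on 1 of 2 probe sets. SEC11C, a signal peptidase subunit, was lower at −0.69 ± 0.20 (limma, adjusted p = 0.048). DERL3 passed in 12 of 21 alternatives and not without JB IMF 1, 2 or 3, JB SCF 4 or 5, or HS SCF 4 or 5 (adjusted p up to 0.0873). SEC11C passed in 10 of 22 and, of the samples left out singly, only without JB IMF 2, HS IMF 3 or HS SCF 4 (adjusted p otherwise 0.0584 to 0.133). PRDM1, the transcription factor of plasma cell differentiation, was at −0.67 and IGHM, the heavy chain of IgM, at −2.10 ± 0.64, just outside the threshold (limma, adjusted p = 0.0508 and 0.0552). As deposited, the list had 0 genes higher and 4 lower, among them PRDM1 (limma, adjusted p = 0.0398) and IGHM (limma, adjusted p = 0.042). IGHM also passed without HS IMF 1 (−2.59, limma, adjusted p = 0.0163) and without JB SCF 6 (−2.47, limma, adjusted p = 0.0401), and PRDM1 passed without HS IMF 2 (−0.84, limma, adjusted p = 0.00862). Counting every alternative that tested them, IGHM passed in 6 of 22 and PRDM1 in 5 of 21.

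Among 10 tested partners of CD45, CD2 and CD3, 2 were lower in IMF, CD48 and LYN, a Src family kinase, the latter at −0.97 ± 0.19 (SE; limma, adjusted p = 0.00725). Another tested LYN probe set was at −0.81 (limma, adjusted p = 0.323). PSTPIP1, an adaptor that binds CD2, was at −0.84 (limma, adjusted p = 0.0582). It passed in 5 of 22 alternatives, among them without JB SCF 4 (adjusted p = 0.0426), HS IMF 1 (0.0281) or HS SCF 4 (0.0331). Of 110 tested genes of the 13 lists, limma called 0 between breeds in IMF, 0 in SCF and 0 for the interaction. At an unadjusted p under 0.05 there were 10, 11 and 3 of the 110, beside 10.2%, 3.56% and 2.14% of all tested probe sets. Of the remaining lists, lymphoid stroma had 0 of 9 tested genes called between depots, endothelial cells 0 of 9 and erythroid cells 0 of 5, by limma, and 3, 1 and 0 of them had an unadjusted p under 0.05. Without JB SCF 4, 1 lymphoid stroma gene passed. Of 4 tested granulocyte and mast cell genes, 2 were lower in IMF and 0 higher, with a median of −1.47, and 3 had an unadjusted p under 0.05. Those called were S100A8 at −2.39 ± 0.53 (SE; limma, adjusted p = 0.0144) and S100A12 at −2.13 ± 0.59 (limma, adjusted p = 0.0398).

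Genes whose pattern was most like each member were ranked by Pearson's r over the 12 samples among 7808 named genes, as a description. Samples of a group share breed and depot, so a gene that differs between depots will rank high beside a member that does. For JCHAIN the first was IGHM, at r = 0.946 (Spearman's rho 0.874), and at 0.960 over deviations from the group means. Within IMF r was 0.885 and within SCF 0.947. Without the 2 samples farthest from the median it was 0.953. The IGHM signal was 78.38, 144.6 and 130.33 in JB IMF, 1159.44, 137.2 and 87.36 in HS IMF, 1376.85, 2436.27 and 360.18 in JB SCF, and 2400.74, 386.12 and 432.14 in HS SCF. The samples highest for JCHAIN within their groups, HS IMF 1, JB SCF 5 and HS SCF 4, were also the highest for IGHM, as was JB IMF 2.

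**Figure D4:**
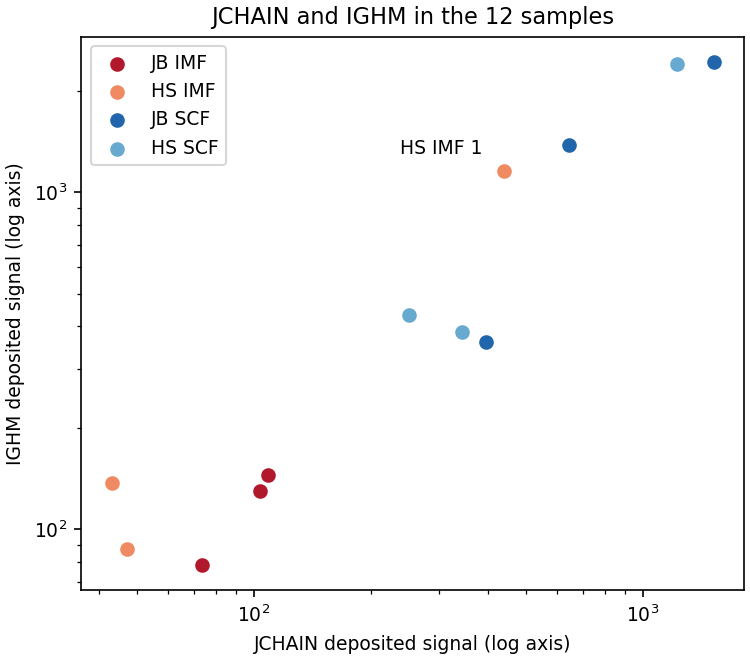
Deposited signals of JCHAIN and IGHM in the 12 samples (both axes log), coloured by group. HS IMF 1, at 439.12 for JCHAIN and 1159.44 for IGHM, lies among the SCF samples, apart from the other 5 IMF samples.

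PTPRC was most like WDFY4, a gene of antigen cross-presentation by dendritic cells, at r = 0.981, then P3H1, a collagen prolyl hydroxylase, at 0.979 and COTL1, the actin-binding coactosin-like protein, at 0.973. Over deviations from the group means the closest to PTPRC were COPG1, TCF7 and P3H1, at 0.956, 0.948 and 0.945. CD3E was most like PRKCSH, a glucosidase subunit, at 0.897 and FYN, a kinase of T cell receptor signalling that other cells also express, at 0.887. The other genes closest to JCHAIN were ECM1 and DSC2, at 0.926 and 0.918. CD3D was most like GAS7 at 0.929, SLX4IP at 0.917 and ETS1, a transcription factor of lymphocytes and endothelium, at 0.914. HS SCF 4 was the highest sample for each of these genes, at 312.18 for CD3D, 3745.22 for GAS7, 729.92 for SLX4IP and 815.33 for ETS1. Without the 2 samples farthest from the median, r between CD3D and GAS7 was 0.716. CD2 was most like FGD1 at 0.814, but r was 0.276 without the 2 samples farthest from the median. Over deviations CD2 was closest to UBD, FGD2 and CTSW, a cysteine protease of cytotoxic lymphocytes, at 0.904, 0.896 and 0.894. Likeness among the members themselves varied. Between PTPRC and JCHAIN r over the 12 samples was 0.74, and 0.269 over deviations from the group means. Between JCHAIN and the brighter CD3D probe set it was 0.592 over the 12 samples. It was 0.170 between CD3E and the same CD3D probe set, whose genes are neighbours, 0.389 between CD3E and CD2, and −0.07 between PTPRC and CD3E.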

How the data were processed

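Total RNA of 12 fat samples was hybridized to the Affymetrix bovine array. The deposited values were linear intensity signals of 24128 probe sets, made with GCOS 1.1.1 and Affymetrix Expression Console 1.1, per the submitters' processing notes. How the authors summarized and normalized these signals is not given in the sources used here. With 112 control probe sets left out, log2(signal + 16) was quantile normalized, and the 30% of probe sets with the lowest mean were left out, leaving 16811. Probe sets were named by the platform annotation, 13292 with 1 symbol, updated through Entrez identifiers (13263 matched); neighbours came from RefSeq (ARS-UCD2.0). A model of 4 group means was fitted with limma 3.58.1 in R 4.3.3 (8 residual and 4.05 prior degrees of freedom), and Benjamini-Hochberg adjustment ran over all tested probe sets of each of 6 comparisons. The fit was tested on simulated data. Named were all member probe sets, the 3 genes most like each member, and up to 4 genes with the smallest p of a list (1 probe set a gene, the one with the highest mean). PTPRCAP, LCK, CD14, MYL2, MYH7, CKM, ACTA1, TNNC1, CD79A, MS4A1 and POU2AF1 were named after their values were seen. The members and the 13 lists were chosen with earlier results of these data known. Alternatives were no filter, 50% left out, a pseudocount of 1, median centring, values as deposited, a trended and robust variance, array weights, only the compared groups, 1 probe set per gene, a replicate block and each sample left out. Leaving out HS IMF 3 with HS SCF 4, or JB SCF 6 with HS SCF 5, was added after the data were seen. Figures were drawn with Python 3.11.15 and matplotlib 3.10.9.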

Additional observations from a re-analysis of the deposited data

Results flagged for a closer look

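JCHAIN in HS IMF 1 stood apart from the other 5 IMF samples. On the log2 scale its gap to the nearest of them was 0.631 of the range of the 6, above Dixon's 95% critical value of 0.625. Its deposited signal was 439.12, against 43.08 to 108.55 in the others. Such a gap arises by chance in about 1 of 20 groups, and 12 groups were examined, 2 depots for each of 6 probe sets. With HS IMF 1 left out, the depot difference of JCHAIN was −2.74 and that of PTPRC −1.73.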

How the results depend on the processing

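The 2 member calls between depots over both breeds, PTPRC and JCHAIN, became 1 when JB SCF 6 and HS SCF 5 were both left out, and 1 to 2 with each sample left out in turn. Without the filter there were 3, since a dim PTPRC probe set then passed as well. Within JB the count of 0 became 2 with array weights, 2 with only the groups compared in the fit and 1 without both HS IMF 3 and HS SCF 4, and ran from 0 to 1 with each sample left out. With array weights 25.8% of all tested probe sets were called there, and with only the groups compared 6.17%. Without both HS IMF 3 and HS SCF 4 the share was 5.01%, against 3.07% in the main fit. Within HS the count of 0 ran from 0 to 2 with each sample left out, 2 being without HS IMF 1. In IMF between breeds, in SCF between breeds and for the interaction, the count stayed at 0 in all 24, 24 and 23 alternatives. Called probe sets between depots over all genes numbered 1848. Leaving out JB IMF 1 gave 976, JB IMF 3 923, JB SCF 5 1027, JB SCF 6 1115 and HS SCF 6 1064. Array weights gave 3154, and the removal of JB SCF 6 with HS SCF 5 gave 800.

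JB and HS share sample numbers within a depot. Samples of one number correlated in their deviations from the group means at −0.278 to 0.117, so the numbers were not taken to pair them. With the replicate block, 0 members passed in either breed comparison or the interaction. Depots share no numbers, so no block could be fitted there. If IMF and SCF samples came from the same animals, that pairing was not taken into account. With only the groups compared, the depot fit over both breeds is the main fit itself. With 3 samples a group, intervals near 1 log2 unit either side limit what the CD3E, CD3D and CD2 comparisons can show.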
